A study of Mus musculus with 8 samples.

Results

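The chromatin loops at Hnf4a and Hnf4g, the genes of the nuclear receptors HNF4A and HNF4G, were examined in Hi-ChIP loop lists of mouse pancreatic cancer cells. A loop was taken when 1 of its anchors lay within 2 kb of an annotated start of either gene, or when both of its anchors lay within 250 kb of those starts. This rule gave 62 distinct loops of the 249200 in the 4 lists, 60 at Hnf4a and 2 at Hnf4g. By list, 24 of 104136 loops came from FOXA1 in the tumor line, 26 of 125623 from FOXA1 in the liver mets line, 17 of 76323 from HNF4G in the tumor line and 20 of 78098 from HNF4G in the liver mets line. Hi-ChIP joins proximity ligation to immunoprecipitation, so it lists contacts between genomic fragments at least 1 of which carries the precipitated protein. The 8 samples were 2 replicates of each of 4 groups, FOXA1 or HNF4G precipitated from a cell line of a primary KPC tumor or from a cell line of a liver metastasis (liver mets), with genotype given as WT and treatment as Untreated in all groups. KPC is a mouse model of pancreatic cancer. Each condition was 1 cell line, so a difference between the lines cannot be told apart from a difference between metastasis and primary tumor in general. Each group had 1 loop list that joined its replicates, so no spread between replicates was available, no test between groups was made, and every interval below covers counting error only.

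HNF4A and HNF4G are closely related receptors that recognize the same kind of DNA site and sit on DNA without needing an added hormone. HNF4A is best known as a regulator of liver, intestine and pancreas genes, and HNF4G is known mainly from intestine and kidney. Hnf4a is transcribed from an upstream promoter, P2, and a downstream promoter, P1. P1 is the main promoter in adult liver, and P2 is the one known from pancreatic islets. FOXA1 is a forkhead protein that binds enhancers in endodermal tissues.

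Hnf4a (ENSMUSG00000017950.16) lay on the plus strand at chr2:163506808-163572910 of mm10 (GRCm38), a gene of 66.1 kb in the GENCODE M21 annotation. Its upstream start, P2, fell inside an anchor at chr2:163505704-163507699 that covered the first exon and the start of the first intron. The P1 starts at 163546817, 163547187 and 163547188 fell in no anchor, and the nearest one, in an Hnf4a intron at chr2:163548168-163549672, began 980 bp downstream of the last of them. A further start at 163550083 lay between that anchor and a second one at chr2:163551958-163554450, which held an exon. These 3 anchors were the Hnf4a promoter anchors, the last 2 of them for P1. P1 here stands for all of these downstream starts, because starts no more than 10 kb apart were grouped. The anchor at chr2:163551958-163554450 counted only through the start at 163550083 and lay more than 2 kb from the other P1 starts. The antisense gene Hnf4aos overlapped the first part of Hnf4a on the minus strand, and its starts lay at least 6448 bp from any anchor. Hnf4g (ENSMUSG00000017688.14) lay on the plus strand at chr3:3508030-3658052, a gene of 150 kb. Its upstream start fell in an anchor at chr3:3507006-3508981, and its inner start at 3634150 was 125169 bp from the nearest anchor.

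The sequence just upstream of each Hnf4a promoter is given in lower case from RefSeq, build GRCm38.p6, plus strand, because most of the contacts below end at or beside it. The P2 sequence, chr2:163506607-163506807, has 201 bases and ends 1 base before the annotated start inside the P2 anchor. The P1 sequence, chr2:163546905-163547154, has 250 bases and ends 1014 bp before the first P1 anchor. GC content was 47.3% in the P2 sequence and 57.6% in the P1 sequence.
Hnf4a P2: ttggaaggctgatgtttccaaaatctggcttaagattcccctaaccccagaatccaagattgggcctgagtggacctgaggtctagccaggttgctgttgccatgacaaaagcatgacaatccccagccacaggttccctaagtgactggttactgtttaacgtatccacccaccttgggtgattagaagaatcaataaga
Hnf4a P1: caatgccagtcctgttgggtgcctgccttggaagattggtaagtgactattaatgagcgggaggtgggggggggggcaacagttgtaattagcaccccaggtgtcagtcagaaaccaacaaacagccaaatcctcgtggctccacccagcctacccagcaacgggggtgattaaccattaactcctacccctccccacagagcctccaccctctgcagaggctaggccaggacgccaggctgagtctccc

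Short core words were then looked for on both strands. They were CAAAGTCCA and CAAAGTTCA for HNF4, TGTTTAC for FOXA, TGANTCA for AP-1 and AGGGGGCGC and AGGTGGCAG for CTCF, and no word is contained in a word of another factor. Neither Hnf4a promoter sequence held any of them, and of 32851 RefSeq promoters 0.715% held an HNF4 word, 3.17% a FOXA word, 6.75% an AP-1 word and 1.74% a CTCF word. None of the 3 Hnf4a promoter anchors and not the Hnf4g anchor held an HNF4 or FOXA word, while both P1 anchors and the Hnf4g anchor held 1 AP-1 word each. The absence says only that these letters were not in these windows. Among all 30542 anchors, 8.15% held an HNF4 word, 36.6% a FOXA word, 63.6% an AP-1 word and 9.96% a CTCF word. Among the 25 anchors of the Hnf4a loops the numbers were 2, 12, 15 and 3, which is 8%, 48.0%, 60% and 12.0%. These shares depend on anchor length. Per kb of anchor the words numbered 0.0272, 0.190, 0.408 and 0.0408, in the same order. Over all anchors they numbered 0.0320, 0.179, 0.432 and 0.0408 per kb. The sites printed below are a selection from partner anchors and lie outside exons. FOXA words outside exons in the anchors at Serinc3 and Sdc4, near Pigt, in Jph2 and at chr2:163814076-163815833 are not printed. Each site is shown with the word in capitals and 15 bases on each side, plus strand.
Downstream anchor, HNF4 word, chr2:163594477-163594515: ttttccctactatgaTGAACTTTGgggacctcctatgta
Downstream anchor, FOXA word, chr2:163595387-163595423: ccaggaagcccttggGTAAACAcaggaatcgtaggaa
Nearer downstream anchor, FOXA word, chr2:163586989-163587025: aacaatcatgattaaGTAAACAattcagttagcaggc
Hnf4a first intron anchor, FOXA word, chr2:163515635-163515671: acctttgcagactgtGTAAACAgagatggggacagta
Hnf4a first intron anchor, FOXA word, chr2:163515734-163515770: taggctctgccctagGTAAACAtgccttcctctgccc
Anchor at Sys1, HNF4 word, chr2:164454962-164455000: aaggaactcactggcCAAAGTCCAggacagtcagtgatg
Hnf4g partner anchor, FOXA word, chr3:3764487-3764523: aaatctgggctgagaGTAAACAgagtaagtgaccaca
Hnf4g partner anchor, FOXA word, chr3:3765097-3765133: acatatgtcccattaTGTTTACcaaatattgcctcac

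Hnf4a had nearly the same number of promoter loops in every list, and Hnf4g had a promoter loop only in the tumor line lists. For Hnf4a the lists held 11 loops for FOXA1 in tumor (exact 95% Poisson interval 5.49 to 19.7), 10 for FOXA1 in liver mets (4.80 to 18.4), 11 for HNF4G in tumor (5.49 to 19.7) and 12 for HNF4G in liver mets (6.20 to 21.0). At least 1 promoter loop was held by 95.5%, 96.7%, 92.0% and 92.6% of the 10802 protein-coding genes with a promoter anchor in those lists, in the same order. Anchors were the ends of listed loops, so each of these genes had a loop in at least 1 list by definition. The liver mets over tumor ratio of Hnf4a promoter loops was 0.909 for FOXA1 (exact conditional 95% interval 0.346 to 2.36) and 1.09 for HNF4G (0.441 to 2.73). The FOXA1 over HNF4G ratio was 1.00 in tumor (0.393 to 2.54) and 0.833 in liver mets (0.323 to 2.10). All 4 intervals included 1 and also included a change of more than 2 in either direction, so these counts could not show a difference of that size. With P2 alone the liver mets over tumor ratio lay on the other side of 1, at 1.4 for FOXA1 (0.382 to 5.59) and 0.833 for HNF4G (0.201 to 3.28). The lists differ in size, and per 100000 listed loops Hnf4a had 10.6 and 7.96 for FOXA1 in tumor and liver mets, and 14.4 and 15.4 for HNF4G. Divided by list size, the FOXA1 over HNF4G ratio was 0.733 in tumor (0.288 to 1.86) and 0.518 in liver mets (0.20 to 1.31).

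**Figure D1:**
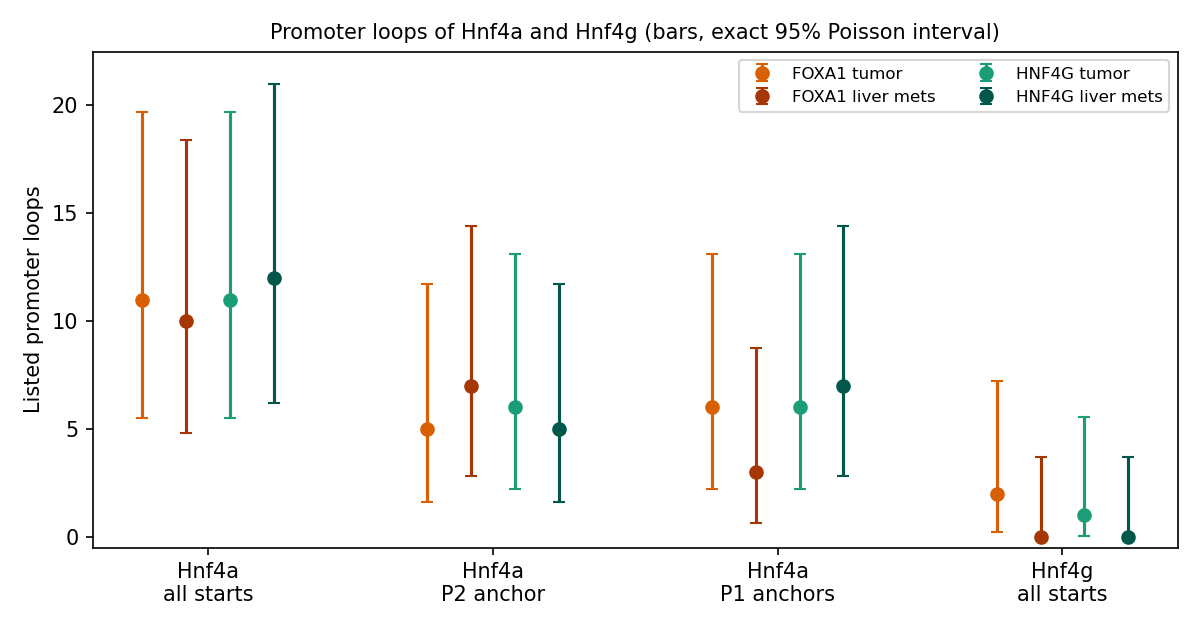
Number of listed promoter loops (y axis) for Hnf4a at all starts, at the P2 anchor and at the P1 anchors, and for Hnf4g, with 1 point per list and bars for the exact 95% Poisson interval. The 4 Hnf4a points lie between 10 and 12, and Hnf4g has 2 and 1 loops in the tumor lists and 0 in the liver mets lists.

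P2 carried 5 loops for FOXA1 in tumor, 7 for FOXA1 in liver mets, 6 for HNF4G in tumor and 5 for HNF4G in liver mets, and the P1 anchors carried 6, 3, 6 and 7. The counts at P2 thus differed by at most 2 among lists, and the lowest P1 count was that of FOXA1 in liver mets. The P1 ratio of liver mets over tumor was 0.500 for FOXA1 (0.0809 to 2.34) and 1.17 for HNF4G (0.336 to 4.2), intervals that overlap widely. The low P1 count lay in the inner P1 anchor, chr2:163551958-163554450, which begins downstream of the start at 163550083 and holds no Hnf4a start. It had 4 loops for FOXA1 in tumor, 0 for FOXA1 in liver mets, 3 for HNF4G in tumor and 4 for HNF4G in liver mets. The other P1 anchor had 2, 3, 3 and 3. Set against the share of anchor pairs that each list held at the same spans genome-wide, P1 had 3 loops where 15 were expected for FOXA1 in liver mets, a ratio of 0.20 (0.0412 to 0.583). The same ratio for P1 was 0.484 (0.178 to 1.05), 0.664 (0.244 to 1.45) and 0.754 (0.303 to 1.55) in the lists of FOXA1 in tumor, HNF4G in tumor and HNF4G in liver mets. At P2 it ranged from 0.688 to 1.11, and every interval included 1. All these intervals are too narrow because pairs share anchors, and FOXA1 in liver mets was singled out as the lowest of 4 lists.

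P2 had 6 contacts that were in 2 or more lists, 3 upstream and 3 downstream, with spans from 8.59 to 138 kb. An anchor in unannotated sequence at chr2:163480782-163482687, 8.15 kb from Fitm2, was joined to P2 over 25.0 kb in all 4 lists, the only Hnf4a loop found in each. The lists give each loop a value without a name, read here as the −log10 of an adjusted p, and for this loop it was 0.123 and 0.0881 for FOXA1 in tumor and liver mets and 0.469 and 0.414 for HNF4G. Those are low values, since 2 would correspond to an adjusted p of 0.01. The Fitm2 promoter was joined to P2 over 33.6 kb in 3 lists, at 0.0864 for FOXA1 in liver mets, 0.171 for HNF4G in tumor and 0.465 for HNF4G in liver mets. Fitm2 encodes an endoplasmic reticulum protein of lipid droplet formation.

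Other promoter contacts were listed for 1 factor in both lines. The R3hdml promoter, 12.8 kb from P2, was joined to it for FOXA1 in tumor (value 0.116) and liver mets (0.181) and in no HNF4G list. The Serinc3 promoter, 138 kb downstream, followed with 1.38 and 1.11 for FOXA1 alone. Serinc3 encodes a membrane protein that restricts some viruses. For HNF4G alone, P2 was joined over 8.59 kb to an anchor in the first Hnf4a intron, at 0.158 in tumor and 0.142 in liver mets, and this is the anchor with 2 FOXA words printed above. For HNF4G alone too, the P1 anchor was joined over 110 kb to the promoter of Gdap1l1, a gene related to the mitochondrial fission gene GDAP1, at 1.27 in tumor and 2.43 in liver mets. The same Gdap1l1 anchor was joined to P2 over 68.0 kb for FOXA1 in liver mets, at 0.0889. The value of 2.43 was the only one of 2 or more among the Hnf4a promoter loops in any list. In the whole lists 7.84% and 9.33% of loops reached 2 for FOXA1 in tumor and liver mets, and 7.32% and 7.21% for HNF4G.

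Downstream of the gene, 2 unannotated anchors 8.22 kb apart supplied most of the P1 contacts of FOXA1 in tumor. The nearer one, chr2:163585993-163588026, lay 13.1 kb from Hnf4a, and the farther one, chr2:163594310-163596149, lay 6.17 kb from Ttpal and held the HNF4 and FOXA words printed above. FOXA1 in tumor joined both of them to both P1 anchors, 4 loops at spans of 33.8, 38.1, 42 and 46.3 kb that all had the value 0.123. HNF4G in liver mets had 2 of these 4, at 38.1 and 42 kb with the value 0.146, and the other lists had none of them. P2 was joined to the farther anchor over 88.5 kb in both tumor lists, at 0.127 for FOXA1 and 0.509 for HNF4G, and to the nearer one over 80.3 kb for FOXA1 in liver mets at 0.0889. The promoters P2 and P1 were joined to each other over 42.2 kb only in the list of HNF4G in tumor, at 0.171. That list also joined both P1 anchors to Fitm2, over 75.8 and 80.1 kb at the same value. A single list each held P1 with R3hdml over 55.0 kb (FOXA1 in liver mets, 0.0889) and the inner P1 anchor with the intron anchor over 37.9 kb (HNF4G in liver mets, 0.146). Values such as 0.123 and 0.171 were shared by many loops of a list, 14721 at 0.123244 for FOXA1 in tumor and 12579 at 0.171044 for HNF4G in tumor. Of the Hnf4a promoter loops, 7 of 11, 5 of 10, 7 of 11 and 7 of 12 stood at 1 of the 2 commonest values of their list, so the values ordered these contacts only coarsely.

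The median span of the Hnf4a promoter loops was 46.3 kb for FOXA1 in tumor, 74.1 kb for FOXA1 in liver mets, 80.1 kb for HNF4G in tumor and 76.1 kb for HNF4G in liver mets. Loops that left the 250 kb window numbered 3, 3, 3 and 5, and each of these 14 loops was in 1 list only, as were 70.0% of all loops of 100 to 500 kb and 91.2% of those of 500 kb or more. In the 3 lists other than FOXA1 in tumor, most of them ended about 1 Mb downstream, at a group of anchors around Sdc4, the gene of the cell surface proteoglycan syndecan-4. HNF4G in tumor joined P2 to the shared Matn4 and Rbpjl promoter anchor over 897 kb, and the inner P1 anchor to the Sys1 anchor over 904 kb and to an anchor near Pigt over 960 kb, each at 1.99. Rbpjl encodes a subunit of the PTF1 complex of pancreatic acinar cells, Matn4 a matrix protein and Sys1 a Golgi protein. HNF4G in liver mets joined the inner P1 anchor to Matn4 and Rbpjl over 851 kb, the other P1 anchor to Sys1 over 908 kb and P2 to the anchor near Pigt over 1007 kb, again at 1.99. FOXA1 in liver mets joined P2 over 931 kb and P1 over 889 kb to the Sdc4 anchor, both at 1.87. In each of these lists that value was 1 of the 2 commonest, so it does not set these contacts apart. It was held by 12163 loops for HNF4G in tumor (1.99048), 11456 for HNF4G in liver mets (1.98617) and 18323 for FOXA1 in liver mets (1.86876). The list of FOXA1 in tumor held no loop between Hnf4a and this group.

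**Figure D2:**
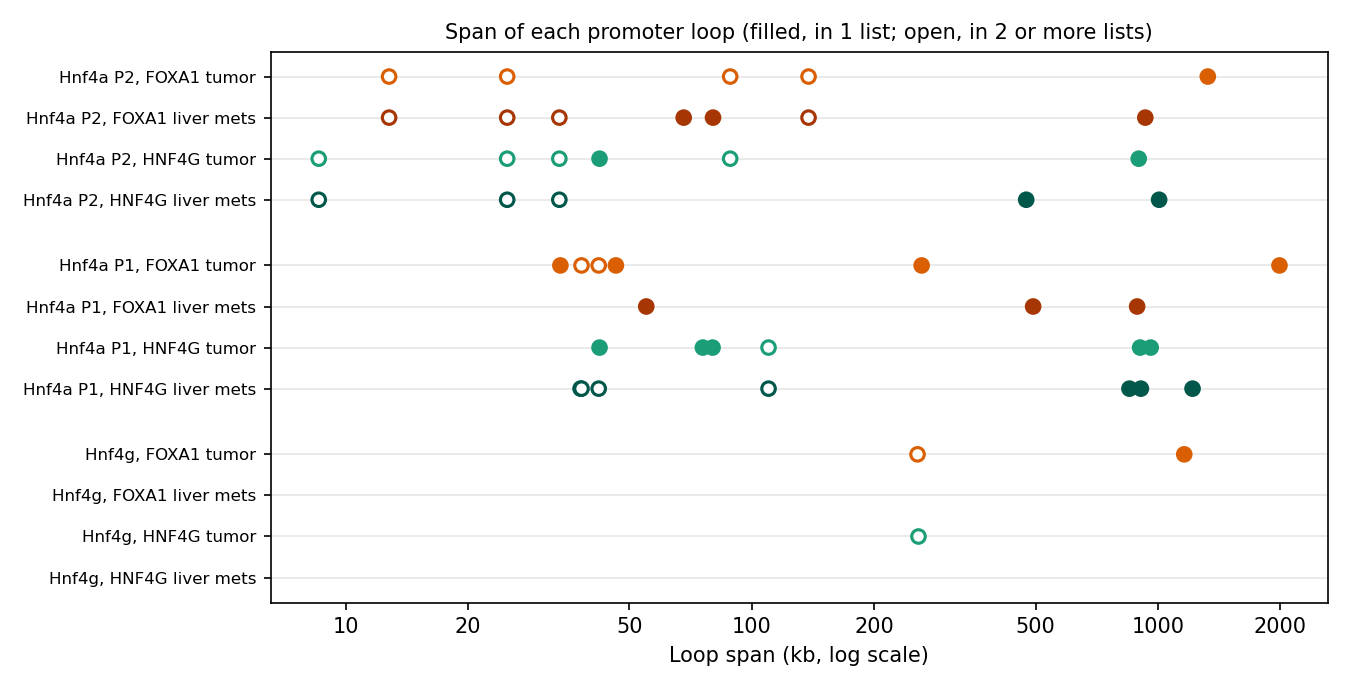
Span of every promoter loop in kb on a log scale (x axis), with 1 row per list for Hnf4a P2, Hnf4a P1 and Hnf4g. Filled points are loops found in 1 list and open points loops found in 2 or more. All points beyond 500 kb are filled, and those between 851 and 1007 kb occur in each list but FOXA1 in tumor.

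The 7 anchors from chr2:164402413 to 164514519 were singled out after these loops had been seen, so what follows describes them and supports nothing. They form 21 possible pairs with the 3 Hnf4a anchors, of which 0 were listed for FOXA1 in tumor, 2 for FOXA1 in liver mets, 3 for HNF4G in tumor and 3 for HNF4G in liver mets. The numbers expected from span were 0.567, 0.801, 0.407 and 0.360. For the HNF4G lists that is 14.3% of the pairs in tumor and in liver mets (Wilson 95% interval 4.98% to 34.6%), beside 1.88% and 1.71% of all 91062 anchor pairs at spans of 851 to 1007 kb. The same 7 anchors had 1 of 63 pairs listed with all their other partners at these spans for HNF4G in tumor and 2 of 63 for HNF4G in liver mets, and 4 of 63 for FOXA1 in either line. The Hnf4a anchors had 0 of 11 listed with their other partners in each list. The Sdc4 anchor is 12967 bp long and carried 26, 34, 20 and 29 loops in the 4 lists, with a sum above that of 99.2% of all anchors, and without it FOXA1 in liver mets had no contact with the group. No contact of this group recurred between lists at the same pair of anchors. The remaining long contacts were 474 kb to Ift52 and 1217 kb to Ube2c for HNF4G in liver mets, 493 kb to Mybl2 for FOXA1 in liver mets, and 262 kb to an unannotated anchor, 1327 kb to Ctsa and Neurl2 and 1992 kb to an anchor in Ptprt for FOXA1 in tumor. Mybl2 and Ube2c are cell cycle genes, and Ctsa encodes a lysosomal carboxypeptidase.

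Within 250 kb of the Hnf4a starts, the lists held 19 loops for FOXA1 in tumor, 23 for FOXA1 in liver mets, 13 for HNF4G in tumor and 15 for HNF4G in liver mets. The window holds 15 anchors and the protein-coding genes Tox2, Jph2, Oser1, Gdap1l1, Fitm2, R3hdml, Hnf4a, Ttpal, Serinc3, Pkig and Ada. The ratio of liver mets over tumor was 1.21 for FOXA1 (0.631 to 2.35) and 1.15 for HNF4G (0.512 to 2.63). Every list held fewer loops here than the spans of the 104 possible pairs would give. The observed over expected ratio was 0.597 for FOXA1 in tumor (0.359 to 0.932), 0.637 for FOXA1 in liver mets (0.404 to 0.956), 0.548 for HNF4G in tumor (0.292 to 0.937) and 0.588 for HNF4G in liver mets (0.329 to 0.970). Pairs share anchors, so these intervals are too narrow. The median over the windows of 10712 genes lay between 0.892 and 0.925, and between 16.8% and 19.8% of genes were lower than Hnf4a.

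**Figure D3:**
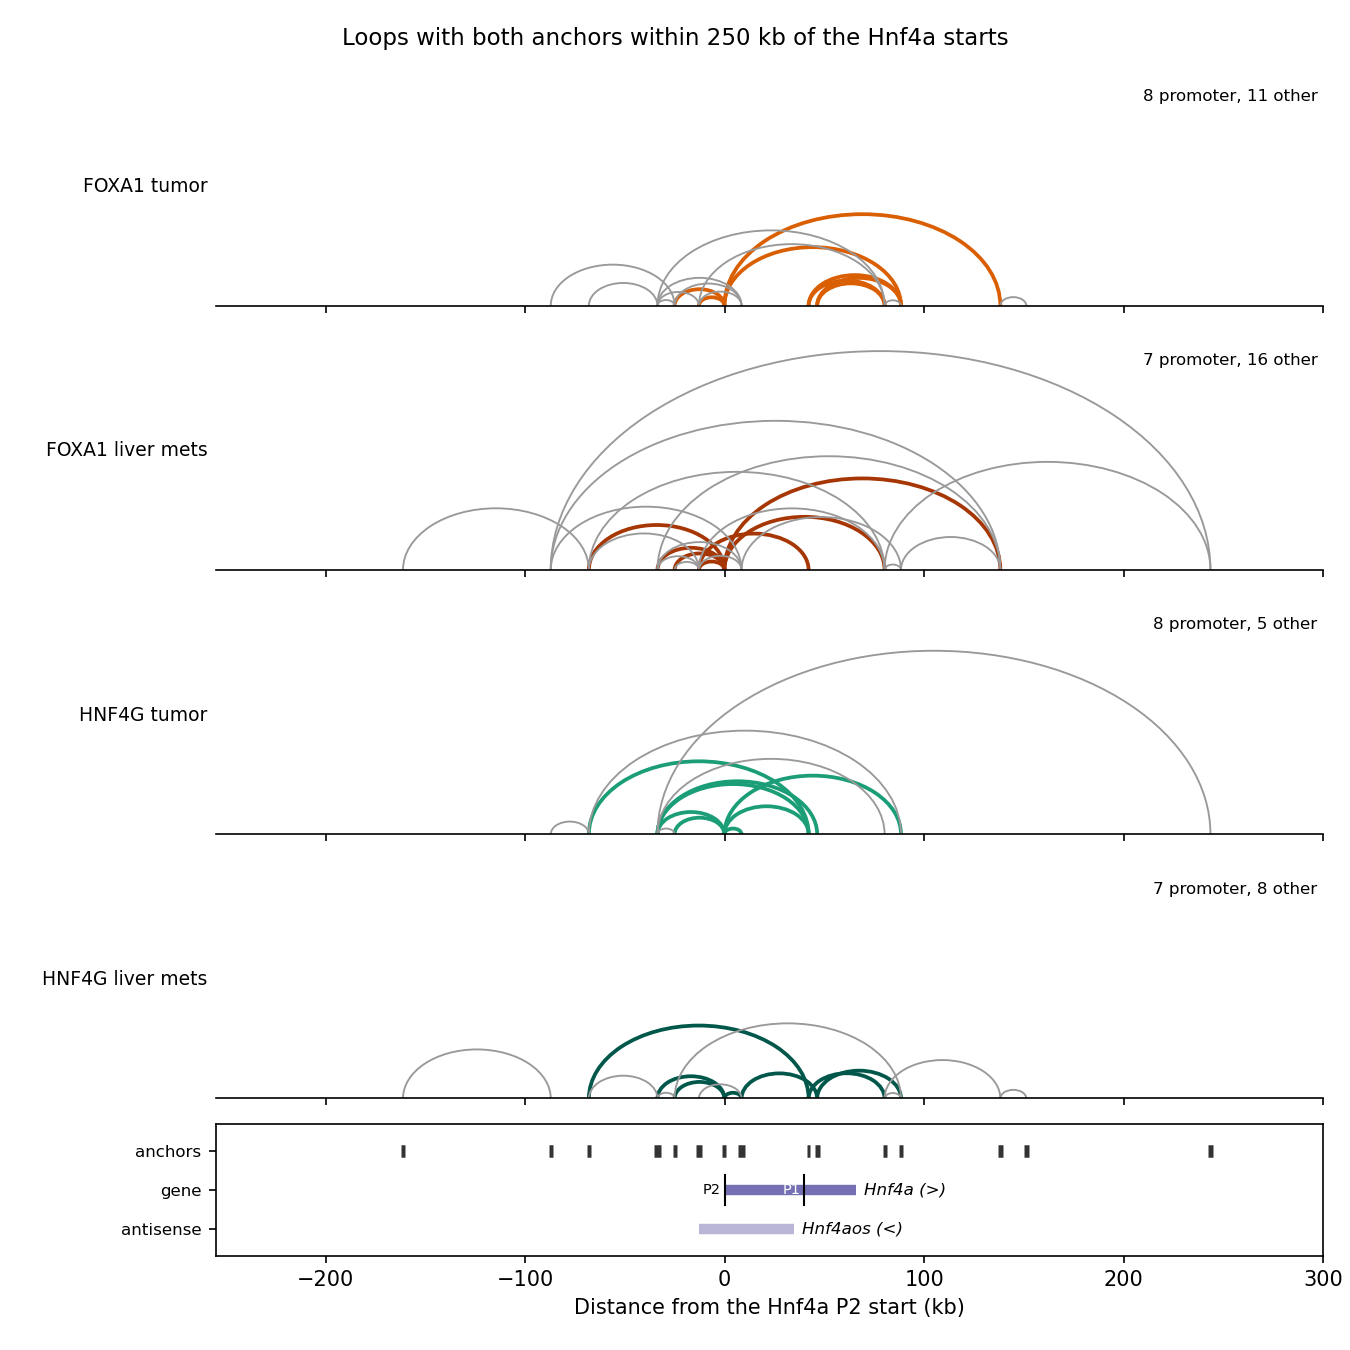
Loops with both anchors within 250 kb of the Hnf4a starts, 1 panel per list, by distance from the P2 start in kb (x axis). Thick colored arcs join an Hnf4a promoter anchor, thin gray arcs do not, arc height scales with span, and the lowest panel gives anchors, Hnf4a with P2 and P1, and antisense Hnf4aos. FOXA1 in liver mets has the most gray arcs, 16, and HNF4G in tumor the fewest, 5.

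Loops of the window that did not touch an Hnf4a promoter numbered 11 and 16 for FOXA1 in tumor and liver mets and 5 and 8 for HNF4G. The FOXA1 over HNF4G ratio of these was 2.20 in tumor (0.705 to 8.08) and 2.00 in liver mets (0.808 to 5.40), and divided by list size 1.61 (0.516 to 5.92) and 1.24 (0.502 to 3.36). At the promoter loops inside the window the ratio before division by list size was 1.00 in tumor (0.327 to 3.06) and 1.00 in liver mets (0.299 to 3.34). Divided by list size it was 0.733 (0.240 to 2.24) and 0.622 (0.186 to 2.08). The anchors at R3hdml and in the first intron of Hnf4a, chosen after their values were seen, had more FOXA1 than HNF4G loops in both lines. The R3hdml anchor had 6 and 11 loops for FOXA1 in tumor and liver mets and 1 and 2 for HNF4G. The intron anchor had 4 and 8 for FOXA1 and 1 and 3 for HNF4G. They were joined to each other over 21.4 kb in 3 lists, all but HNF4G in tumor.

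The busiest anchor of the window was Fitm2, with 9, 9, 7 and 5 loops, a sum of 30 that exceeded 69.8% of all anchors. The P2 anchor, with a sum of 23, exceeded 57.2%, and each P1 anchor, with 11, exceeded 25.1%, where the median anchor had 19. Gdap1l1 had 1, 7, 5 and 3 loops and Serinc3 had 3, 9, 1 and 6, so the list of FOXA1 in liver mets was the highest at both. The anchors in Jph2 and at Pkig and Ada, toward the edges of the window, had sums of 6, 4 and 5. Ada encodes adenosine deaminase and Pkig an inhibitor of protein kinase A.

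**Figure D4:**
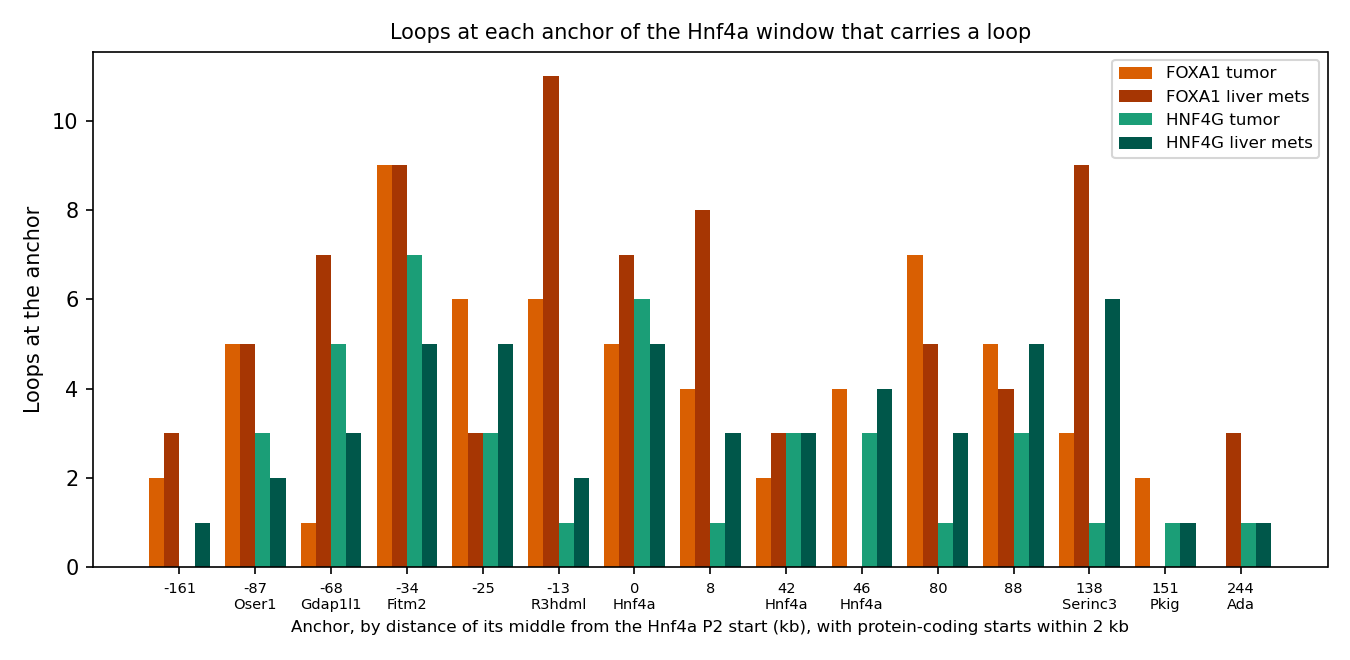
Loops of any span at each of the 15 anchors of the Hnf4a window (bars, 1 color per list, y axis from 0), ordered by distance from the P2 start and named by protein-coding starts within 2 kb. The P2 anchor has 5 to 7 loops in every list, while the R3hdml anchor has 6 and 11 for FOXA1 and 1 and 2 for HNF4G.

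Most Hnf4a promoter contacts were in a single list, at a share near that of all loops. Of the 32 distinct promoter loops, 23 were in 1 list, 7 in 2, 1 in 3 and 1 in all 4. The share in 1 list was 71.9%, beside 65.6% of all 249200 distinct loops. By span, 9 of 16 loops of 5 to 100 kb were in 1 list, 56.2% beside 35.5% of all loops of those spans, and so were all 11 loops of 500 kb or more, beside 91.2% of all such loops. P2 had 8 of its 14 distinct loops in 1 list and P1 had 16 of 19. Of the Hnf4a promoter loops of each factor, 3 were found in both lines for FOXA1, 27.3% of those in tumor and 30% of those in liver mets (Wilson 95% interval of the latter 10.8% to 60.3%). Of all FOXA1 loops, 41.1% of those in tumor and 34.0% of those in liver mets were in both lines, which lies within that interval. For HNF4G 4 were, 36.4% of those in tumor (15.2% to 64.6%) and 33.3% of those in liver mets, beside 33.6% and 32.9% of all HNF4G loops. The shares rest on exact anchor identity and on the P1 anchors. With anchors widened by 5 kb before matching, the share of the smaller list found in both lines was 50% for FOXA1 and 54.5% for HNF4G, and with P2 alone it was 60% for either. The shares over all loops above hold for exact matching and all spans together. None was calculated with widened anchors or at spans like those of Hnf4a, so these values have no background here. The factors shared 2 in tumor, 18.2% of either list, and 2 in liver mets, 20% of the FOXA1 loops and 16.7% of the HNF4G loops. Over all loops the factors shared 28.4% of the FOXA1 and 38.7% of the HNF4G loops in tumor, and 27.8% and 44.8% in liver mets. The 7 loops in exactly 2 lists were 2 of FOXA1 in both lines, 2 of HNF4G in both lines, 1 of both factors in tumor and 2 of FOXA1 in tumor with HNF4G in liver mets. Among the 28285 loops under 150 kb in exactly 2 lists, these combinations held 29.9%, 9.26%, 11.7% and 14.4%.

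Hnf4g had few loops, and few possible ones. Its promoter anchor had 2 loops for FOXA1 in tumor (Poisson interval 0.242 to 7.22), 1 for HNF4G in tumor (0.0253 to 5.57) and 0 in either liver mets list, which allows up to 3.69 loops each. A loop of 256 kb to an unannotated anchor at chr3:3763380-3765219, 105 kb past the gene, was in both tumor lists at 1.74 for FOXA1 and 1.86 for HNF4G. This partner holds the 2 FOXA words printed above. A loop of 1161 kb to chr3:4667700-4671054 was in the list of FOXA1 in tumor alone, at 1.91. The ratio of liver mets over tumor was 0 for FOXA1, with an interval of 0 to 5.32, and 0 for HNF4G, with an interval of 0 to 39.0, so no difference between the lines was detectable at these counts. Promoter loops in both tumor lists and in neither liver mets list were found at 0.537% of the 10802 genes, 58 genes, and the reverse at 0.694%, 75 genes. Among the 212 genes with a sum of 3 promoter loops like Hnf4g, 8.49% had none in liver mets and 15.1% none in tumor.

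Around Hnf4g there were only 5 other anchors within 2 Mb of the promoter anchor, while the median promoter anchor had 80, and 0.256% of promoter anchors had fewer. All 5 lay downstream of Hnf4g, and how much upstream sequence could hold an anchor was not examined. The 3 Hnf4a anchors had 79 to 81. The 2 loops of FOXA1 in tumor were 2 of these 5 pairs, where 0.214 were expected from span, and the observed over expected ratio was 9.33 (1.13 to 33.7). For HNF4G in tumor it was 6.53 (0.165 to 36.4). Anchors were the ends of listed loops, so the Hnf4g anchor entered the set only through these tumor line loops. A high ratio in some list was thus built in, and these ratios cannot show an excess of contacts. The partner at chr3:3763380-3765219 carried 3 and 4 loops for FOXA1 in tumor and liver mets and 1 and 0 for HNF4G, so in liver mets it had loops for FOXA1 but none for HNF4G. The nearest protein-coding gene of the other 4 anchors was Zfhx4, a zinc finger homeobox gene, and 1 of them, chr3:5217594-5222152, overlapped it. The Hnf4g anchor itself, with a sum of 3 loops, exceeded 3.51% of anchors.

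Among protein-coding genes, Hnf4a stood above the middle in each list. Its promoter loop number exceeded that of 69.6% of the 10802 genes for FOXA1 in tumor, 60.5% for FOXA1 in liver mets, 77.1% for HNF4G in tumor and 80.7% for HNF4G in liver mets, where the medians were 6, 7, 5 and 5 loops. Genes with more promoter anchors have more loops, and among the 323 genes with 3 promoter anchors the medians were 21, 26, 15 and 16, all above Hnf4a. Hnf4g exceeded 12.4% of genes for FOXA1 in tumor and 7.96% for HNF4G in tumor. The genes whose promoter loop numbers over the 4 lists were most like those of Hnf4a, by the summed absolute difference, were Luc7l (11, 10, 12 and 12, a difference of 1), Fkbp14 (10, 10, 12 and 12) and Plekha2 (13, 10, 11 and 12), the latter both with a difference of 2 that 5 genes shared. For Hnf4g, Erich2, Esd and L3mbtl4 were 3 of 9 genes with the same numbers, 2, 0, 1 and 0.

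**Figure D5:**
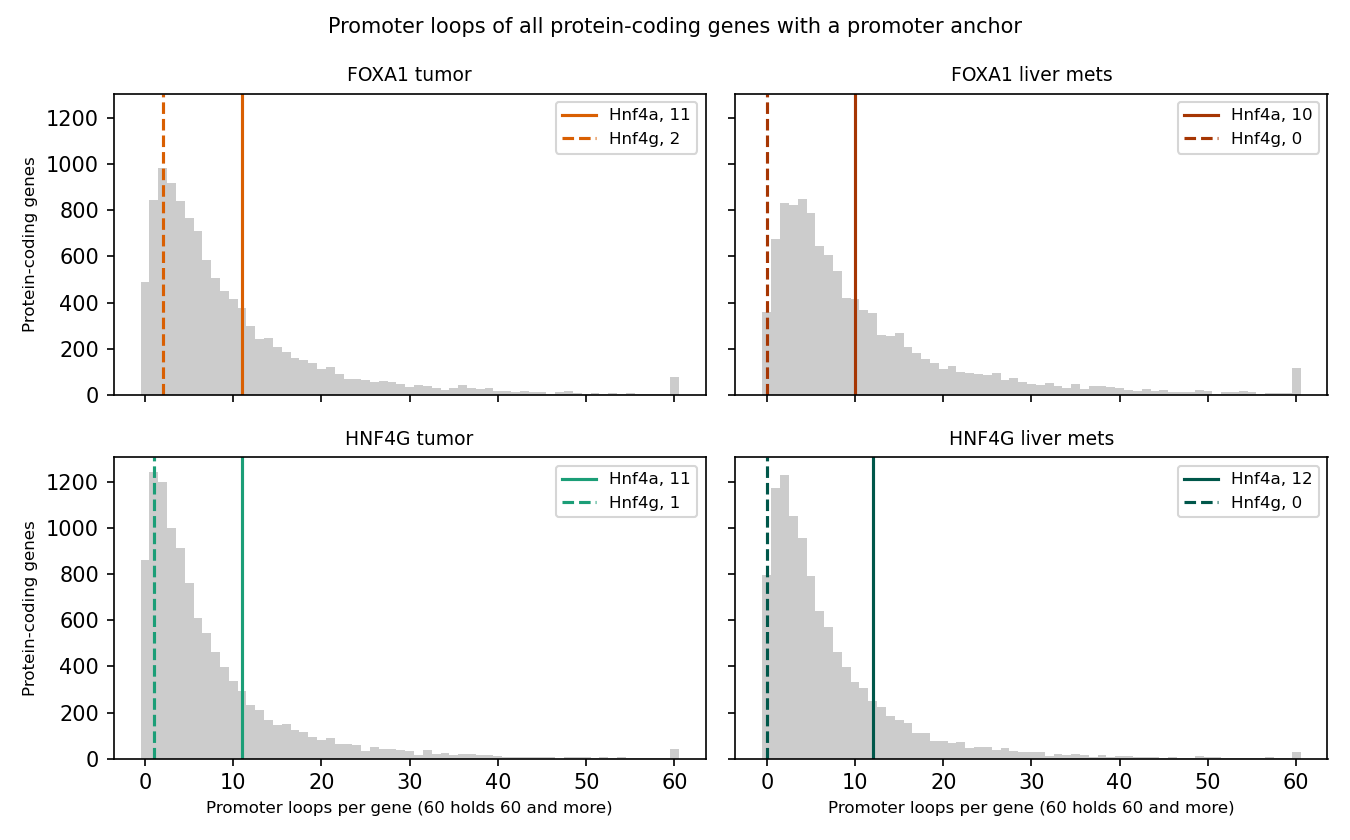
Number of protein-coding genes (y axis) by promoter loops per gene (x axis, 60 holds 60 and more), 1 panel per list, over the 10802 genes with a promoter anchor. The solid line marks Hnf4a, at 10 to 12 loops and right of the median of 5 to 7, and the dashed line marks Hnf4g, at 0 to 2.

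Other nuclear receptor genes covered a wide range around these values. Of 26 listed, 24 had a promoter anchor, and 22, 20, 21 and 22 had a promoter loop in the lists of FOXA1 in tumor, FOXA1 in liver mets, HNF4G in tumor and HNF4G in liver mets. Of all 10802 protein-coding genes with a promoter anchor, 95.5%, 96.7%, 92.0% and 92.6% had a promoter loop in those lists, in the same order. The median over the 24 was 6.5, 10, 6.5 and 7 loops, beside 11, 10, 11 and 12 at Hnf4a, which equaled it for FOXA1 in liver mets and lay above it in the other lists. Rara, the retinoic acid receptor alpha gene, had 106, 133, 118 and 74 promoter loops, the most of the list. Rxra, a retinoid X receptor gene, had 5, 4, 1 and 1, and Nr2f2, the gene of the orphan receptor COUP-TFII, had 4, 5, 5 and 5. Rora (1, 0, 0 and 0) and Nr2f1 (0, 0, 2 and 0) were as sparse as Hnf4g.

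Of 19 genes of proteins known to work with HNF4 or FOXA1, 18 had a promoter anchor, with medians over these 18 of 7.5, 10, 8.5 and 6.5 loops. Foxa1 had 8, 11, 6 and 5 promoter loops, Foxa2 had 13, 18, 9 and 11 and Gata6 had 7, 10, 7 and 9. Of 21 textbook HNF4 target genes 8 had a promoter anchor, 38.1% beside 49.2% of all 21951 protein-coding genes, and each of those 8 had a loop in every list. A promoter anchor by itself implies a loop in at least 1 list. Of all genes with a promoter anchor, between 92.0% and 96.7% had a loop in any given list. The share of them with a loop in every list was not calculated. Among them the microvillus gene Vil1 had 17, 19, 12 and 12 and Pklr, the liver pyruvate kinase gene, had 16, 10, 11 and 9. Apoa1, the main protein of high-density lipoprotein, had 4, 6, 1 and 5. The cell type was checked with promoter loops in the same way. Of 8 ductal and epithelial markers 7 had loops in all lists, with medians over these 7 of 27, 31, 23 and 20. Over all protein-coding genes with a promoter anchor the medians were 6, 7, 5 and 5. Promoter anchors were present at 1 of 8 hepatocyte markers, 0 of the 4 annotated acinar markers, 2 of 6 fibroblast markers and 1 of 4 immune markers, beside the same 49.2% of all protein-coding genes. The non-ductal markers with an anchor also had loops in every list. The hepatocyte marker had 4, 6, 1 and 5, the immune marker 9, 8, 7 and 7, and the 2 fibroblast markers medians of 7, 8.5, 10 and 5.5. A promoter anchor is a coarse marker, and these lists are short.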

How the data were processed

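Hi-ChIP was carried out for FOXA1 and HNF4G in 2 KPC mouse cell lines, with 2 replicates per group, and groups were taken from the sample titles. Per the study's methods the authors aligned reads to mm10 and filtered pairs on DpnII fragments with HiC-Pro (3.1.0 in the submitters' processing notes) and called loops with hichipper. The anchor source, the minimum of read pairs and the way replicates were joined are not given in the sources used here, and read depth was not analysed here. The deposited value of each loop has no name and was read as a −log10 adjusted p, from its values alone. The deposited display score was derived from that value and was not used further.

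Loops were counted with Python 3.11.15, pandas 2.3.3, numpy 2.4.6 and scipy 1.17.1, and sequences were read with samtools 1.23.1. Starts came from GENCODE M21. All 4 lists were read against 1 set of 30542 anchors, which were the ends of all loops in the 4 lists. Expected numbers came from the share of anchor pairs listed in each of 30 span ranges up to 2 Mb. Intervals are 95% exact Poisson, Clopper-Pearson (ratios) or Wilson. Counting was tested on simulated data. Loops that share an anchor are not independent.

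The members and gene lists were chosen with earlier results of these data known. Genes were named if they were members, held a start within 2 kb of a partner anchor in 2 or more lists, lay within 250 kb of a member, were among the 3 most alike in loop number, or were in a fixed list, and the 5 partners of 1 list, Ube2c, Ctsa, Neurl2, Sdc4 and Mybl2, as well as Ift52, Ptprt, Pigt and Zfhx4, were named after their loops had been seen.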

Additional observations from a re-analysis of the deposited data

How the results depend on the processing

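The liver mets over tumor ratios, the FOXA1 over HNF4G ratios and the shares of loops found in both lines stayed within their main intervals in 45 of 46 recalculations, which changed the distance to a start, the smallest value or span, the start used, the anchor matching and the division by list size. The exception was the FOXA1 over HNF4G ratio of Hnf4a in liver mets, 0 with values of 2 or more, where 1 promoter loop was left in all lists. That setting left no other ratio or share. Many of the 46 had no room to move, so their number overstates what was checked. The 5 kb distance gave the same Hnf4a loop numbers as the report. Starts inside the anchor and the gene record start gave identical values. Hnf4g had the same promoter loop numbers wherever a ratio was left, with main intervals as wide as 0.104 to 118. The main intervals of Hnf4a are wide too, and within them directions turned. With starts inside the anchor, or the gene record start alone, the liver mets over tumor ratio of Hnf4a was 1.4 for FOXA1 (0.909 in the report) and 0.833 for HNF4G (1.09), the FOXA1 over HNF4G ratio was 0.833 in tumor (1.00) and 1.4 in liver mets (0.833), and the share in both lines was 60% for either factor (30% and 36.4%). With anchors widened by 5 kb that share was 50% for FOXA1 and 54.5% for HNF4G. No share over all loops was calculated in these settings. Counts also moved. In the same 2 settings only P2 remained, and Hnf4a had 5, 7, 6 and 5 promoter loops in the lists of FOXA1 in tumor, FOXA1 in liver mets, HNF4G in tumor and HNF4G in liver mets. With 1 anchor inside the window instead of both, the window loops were 42, 54, 26 and 34. The exclusion of the Sdc4 anchor, chosen after seeing the data, left 0 of 2 contacts for FOXA1 in liver mets, and without the inner P1 anchor HNF4G in tumor kept 1 of 3. No paired analysis was possible because each list joins its replicates, and for the same reason no replicate could be left out. The number of loops limits every comparison, since ratios of about 10 loops have intervals that span more than a factor of 2 each way.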
